A study of Homo sapiens with 6 samples.

Results

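The genes described here are 35 components and regulators of the complement system, taken by gene name from a table of 58735 genes. They comprise 6 genes of the classical pathway, 6 of the lectin pathway, 4 of the alternative pathway, 7 of the terminal pathway and 12 regulators. Complement is a cascade of plasma proteins, made mostly by hepatocytes, that marks microbes and damaged cells for removal. Antibody-bound C1, mannose-binding lectin and ficolins, or spontaneous turnover of C3 start it, and these routes meet at the cleavage of C3. The terminal components then build a pore in the target membrane, while soluble and membrane-bound regulators protect host cells. Several of these proteins belong to the acute-phase response, in which cytokines such as interleukin-6 and interferons change what the liver secretes.

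The cells were HepaRG, a human hepatic progenitor line that forms hepatocyte-like and biliary-like cells, and all groups were differentiated for 2 weeks with 1.8% DMSO. The 3 libraries labelled PTPF and the 3 labelled STATF came from cells given siRNA for 48 h and then oleic acid (800 µM) with palmitic acid (400 µM) for 24 h. Going by the design text, the siRNAs were directed at PTPRD, a receptor tyrosine phosphatase, at STAT3, a transcription factor downstream of interleukin-6, or at both. The labels do not spell out PTPF and STATF, and libraries with control siRNA were not analysed here. Since the labels do not state whether replicates were cultured separately, the p-values refer to a spread between libraries that may be technical.

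Gene counts totalled 33225627 to 36785080 in the PTPF libraries and 36443380 to 40796767 in the STATF libraries. STAT3 transcript stood at 436, 437 and 457 CPM (counts scaled to a fixed library size with TMM factors) in PTPF libraries, against 114, 132 and 113 CPM in STATF libraries. PTPRD stood at 10.04, 12.8 and 11.7 CPM in PTPF libraries and 11.2, 12.2 and 11.1 CPM in STATF libraries, with overlapping groups and 95% limits of -0.19 and 0.19 on the log2 fold change. A lower PTPRD level in the libraries labelled PTPF was thus not seen, and every direction here is between libraries by label. All 9 hepatocyte markers examined had at least 10 counts in every library, with a summed level of 20436 to 23221 CPM in PTPF and 25724 to 26976 CPM in STATF libraries. Of these markers 3 were lower in PTPF libraries, among them albumin, and 1 was higher. The 9 biliary and progenitor markers summed to 391.8 to 434 CPM in PTPF and 392.1 to 408 CPM in STATF libraries, with CD24 higher and KRT19 and SOX9 lower. KRT19 averaged 75.7 CPM in PTPF and 113 CPM in STATF libraries, and CD24 185 and 121 CPM, while the epithelial marker EPCAM had no count in any library. The 10 markers of macrophages and leukocytes summed to 1.41 to 2.31 CPM in PTPF and 2.59 to 2.77 CPM in STATF libraries. CD3E and TYROBP were at 0 throughout, while CD163 had 25 to 64 counts per library. The 8 stellate and fibroblast markers summed to 54.5 to 71.3 CPM in PTPF and 56.8 to 73.9 CPM in STATF libraries, with 1 of them, ACTA2, lower and none higher. The 7 endothelial markers summed to 1.04 to 1.67 CPM in PTPF and 1.61 to 2.16 CPM in STATF libraries. CLEC4G was at 0 throughout, while PECAM1 had 13 to 50 and STAB2 13 to 24 counts per library. In bulk RNA, fewer cells of a type and less RNA per cell cannot be told apart, and the part of these marker differences in the results below was not tested.

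Where complement transcripts differed past the test, they were higher in the libraries labelled PTPF. Of the 33 listed genes that passed the filter on low counts, 14 were higher past an adjusted p of 0.05 in edgeR's quasi-likelihood test and none was lower, while 10.1% of all 17844 genes tested were called higher and 11.6% lower (21.6% in either direction). The regulators (7 of 12) and the terminal pathway (4 of 7) held most of them, followed by the classical pathway (3 of 6), whereas none of 4 lectin and none of 4 alternative pathway genes tested passed. By group, the median log2 fold change was 0.41 for regulators, 0.25 for terminal, 0.14 for classical, 0.28 for lectin and 0.18 for alternative genes. CFD, CFP, FCN2, MASP2 and MBL2 had few counts, so the absence of calls for these genes does not show smaller differences. For the better counted C3, CFB and MASP1, the edgeR confidence limits were -0.14 to 0.13, -0.03 to 0.22 and -0.20 to 0.12. These limits exclude a log2 fold change as large as that of C1R (0.42), but those of CFB include that of C1S (0.20). The median log2 fold change of the 33 genes was 0.26, beside 0.00 over all genes tested. One gene, C4A, was lower at an unadjusted p under 0.05 in edgeR, beside 16.8% of all genes tested. DESeq2 and limma-voom also called no complement gene lower. Calls are more frequent at high counts: of genes at or above the median level of these 33, 17.6% were called higher and 19.6% lower, and of the 17 complement genes in that range 8 were higher. In 15 of the 33 the libraries of the 2 groups did not overlap, each time with PTPF higher, while 17.3% of all genes had PTPF higher and 18.4% PTPF lower without overlap. For each of the 14 called genes the two-sided exact permutation p over the 6 libraries was 0.1, the smallest that 3 against 3 libraries allow.

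**Figure D1:**
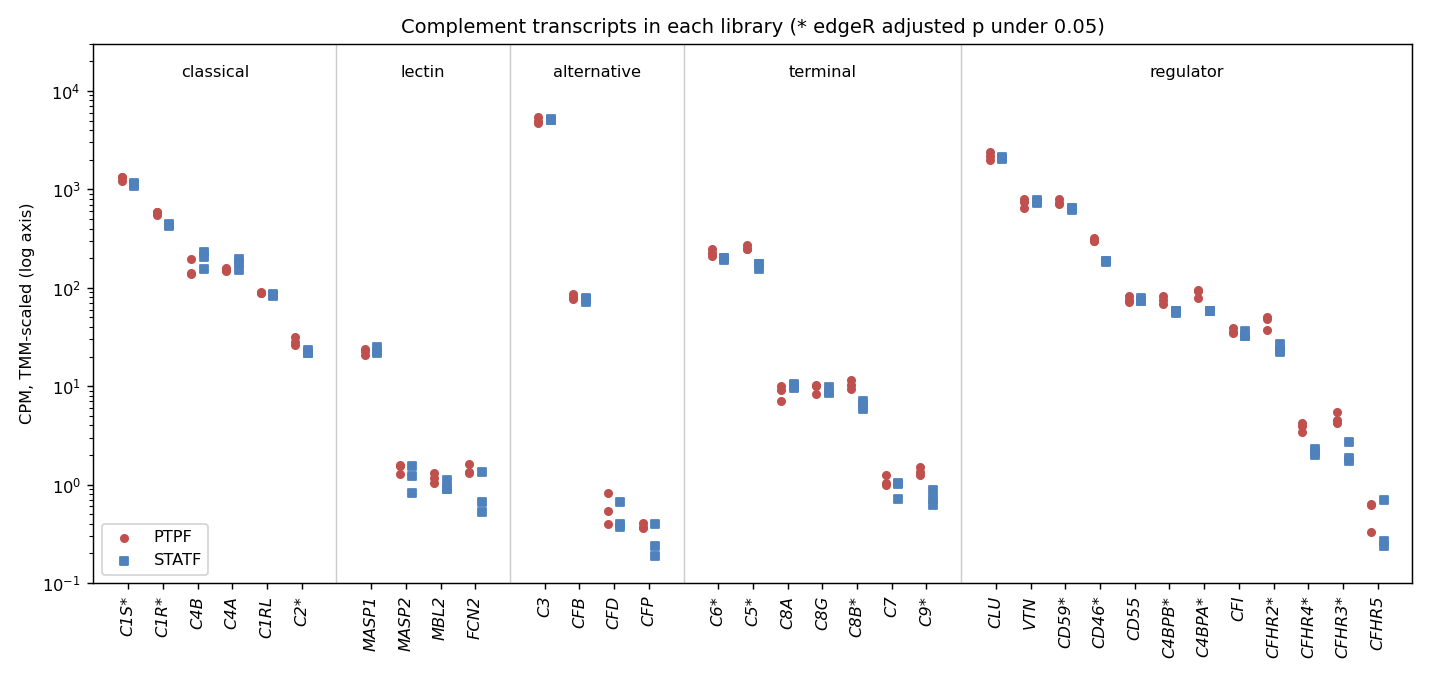
Transcript level of the 33 complement genes that passed the filter, in each library, on a log axis in TMM-scaled CPM. Circles are the 3 PTPF libraries and squares the 3 STATF libraries, and an asterisk marks the 14 genes past an edgeR adjusted p of 0.05, all higher in PTPF.

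The genes spanned several orders of magnitude when compared per length. C3, the component on which all routes meet, was the most abundant at a median of 603 CPM per kb over the 6 libraries. It was followed by the regulators CLU (clusterin, 316 CPM per kb) and VTN (vitronectin, 306 CPM per kb), whose ranges overlapped each other. The protease C1S came next at 183 CPM per kb, apart from its neighbours in the order, and C1R and CD59 followed at 84.3 and 65.4 CPM per kb with overlapping ranges. From C6 (43.4) through C5, C4BPA, CD46, C4B, C4A, C4BPB, C1RL, CFB and CFHR2 down to CD55 (12.6 CPM per kb) every gene overlapped the next. C8G, CFI, C2, C8A, C8B and MASP1 lay between 8.09 and 1.70 CPM per kb. The remaining 12 genes, among them most of the lectin pathway, C7 and C9, had medians of 1.25 CPM per kb or less. Together the 35 genes took 1.17% to 1.25% of all counts in PTPF and 1.17% to 1.18% in STATF libraries, and C3 alone made up 38.5% to 42.6% of complement counts in PTPF libraries and 43.7% to 44.5% in STATF libraries. Summed over the 33 genes other than C3 and CLU, the level was 4764 to 5187 CPM in PTPF and 4259 to 4468 CPM in STATF libraries.

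Among the regulators, 3 of the 4 factor H-related genes measured here had the largest fold changes. These genes encode plasma proteins that bind C3 fragments and surfaces. CFHR3 stood at 4.28, 4.58 and 5.45 CPM in PTPF libraries, against 1.73, 1.87 and 2.70 CPM in STATF libraries, so every PTPF library exceeded every STATF library. Its log2 fold change was 1.18 (SE 0.172, adjusted p = 7.56e-06 in edgeR), a 2.27-fold difference on 65 to 178 counts per library. CFHR2 stood at 50.04, 37.5 and 48.5 CPM in PTPF and 22.0, 23.4 and 26.9 CPM in STATF libraries, with a log2 fold change of 0.91 (SE 0.107, adjusted p = 5.66e-05 in edgeR). CFHR4 had 3.91, 3.43 and 4.20 CPM in PTPF and 2.29, 1.99 and 2.16 CPM in STATF libraries, and its log2 fold change was 0.84 (SE 0.161, adjusted p = 2.87e-04 in edgeR). Neither gene's groups overlapped. CFHR5 was at the edge of detection with 10 to 26 counts per library, and its groups overlapped at 0.334 to 0.643 CPM in PTPF and 0.240 to 0.695 CPM in STATF libraries (adjusted p = 0.541 in edgeR). These 4 genes lie within 234.9 kb on the plus strand of chromosome 1, from 196774795 to 197009674 of GRCh38. They resemble one another and other genes nearby: of the 75-base stretches in their annotated transcripts, 10.03% in CFHR2, 8.16% in CFHR3, 12.04% in CFHR4 and 0.548% in CFHR5 also occur in transcripts of another gene. Reads from such stretches may be split between genes, so the individual values of this family are uncertain.

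Of 4 other regulators on chromosome 1, between 207088842 and 207795513, 3 were higher. CD46, a membrane cofactor for the cleavage of C3b and C4b, was at 301, 318 and 296 CPM in PTPF libraries, against 181, 187 and 188 CPM in STATF libraries. That gap, a log2 fold change of 0.72 (SE 0.055, adjusted p = 9.71e-11 in edgeR), was far wider than the spread within either group. C4BPA, the alpha chain of the C4b-binding protein that dismantles the classical C3 convertase, had 92.1, 78.4 and 94.998 CPM in PTPF and 57.6, 57.5 and 57.5 CPM in STATF libraries. The log2 fold change was 0.62 (SE 0.063, adjusted p = 2.36e-08 in edgeR). C4BPB, the beta chain that carries protein S, stood at 83.5, 68.7 and 75.4 CPM in PTPF and 58.4, 55.9 and 58.6 CPM in STATF libraries, a log2 fold change of 0.40 (SE 0.063, adjusted p = 2.86e-05 in edgeR). The STATF libraries agreed closely on both chains while the PTPF libraries varied more, with replicate 2 the lowest for each. CD55, which lies between C4BPA and CD46 and speeds the decay of C3 convertases, did not pass and stood at 81.7, 71.7 and 74.9 CPM in PTPF and 78.1, 73.3 and 73.8 CPM in STATF libraries. The log2 fold change was 0.02, with 95% limits of -0.10 and 0.14.

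Of the other regulators only CD59 passed. CD59, a membrane protein that blocks assembly of the terminal pore, had 791, 732 and 708 CPM in PTPF and 647, 618 and 642 CPM in STATF libraries, without overlap. The CD59 log2 fold change of 0.23 (SE 0.059) had an edgeR adjusted p of 0.00614, which became 0.0602 without STATF replicate 2. CLU and VTN, which bind terminal complexes in the fluid phase, had overlapping groups. CLU stood at 2396, 1996 and 2196 CPM in PTPF and 2116, 2061 and 2021 CPM in STATF libraries, with a log2 fold change of 0.09 and 95% limits of -0.05 and 0.23. VTN averaged 725 ± 74.9 CPM in PTPF and 749 ± 28.1 CPM in STATF libraries (SD, n = 3 each), with 95% limits of -0.18 and 0.09 on the log2 scale. CFI, the protease that cleaves C3b and C4b with the help of cofactors, averaged 36.7 ± 1.99 CPM in PTPF and 33.7 ± 2.61 CPM in STATF libraries (SD, n = 3 each). Its 95% limits were -0.01 and 0.26 on the log2 scale, and another annotated gene on the same strand covers 32.0% of its exon bases.

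**Figure D2:**
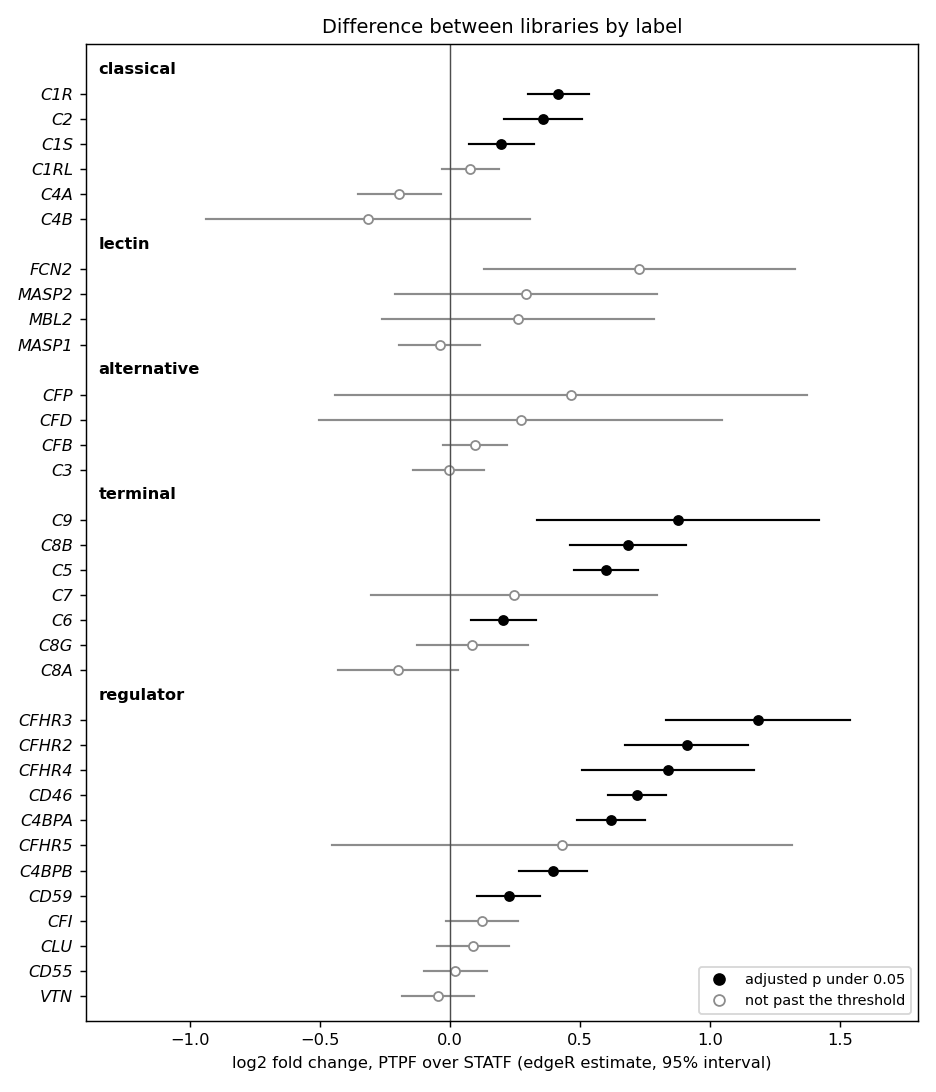
Log2 fold change of PTPF over STATF libraries for the 33 genes tested, by functional group, with 95% intervals from the edgeR fit. Filled points mark the 14 genes past an adjusted p of 0.05, which run from 0.20 (C1S) to 1.18 (CFHR3), and open points the others, among them C3 at 0.00.

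In the terminal pathway, C5 had the smallest adjusted p. C5, whose cleavage releases the chemoattractant C5a and starts the pore, stood at 250.5, 245 and 272 CPM in PTPF libraries, against 157, 175 and 174 CPM in STATF libraries. The groups were well apart, with a log2 fold change of 0.60 (SE 0.059, adjusted p = 1.27e-08 in edgeR), or 1.52-fold. C6, the next component to join, had 227, 209 and 250.01 CPM in PTPF and 191, 202 and 202 CPM in STATF libraries. Its smaller log2 fold change of 0.21 (SE 0.061, adjusted p = 0.0158 in edgeR) no longer passed without PTPF replicate 3 (adjusted p = 0.161) or without STATF replicate 1 (adjusted p = 0.103). C7 was scarce at 27 to 43 counts per library, 1.001 to 1.26 CPM in PTPF and 0.72 to 1.03 CPM in STATF libraries, and its groups overlapped.

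Of the 3 chains of C8, 1 passed. C8B, the beta chain, was higher at 10.4, 9.29 and 11.6 CPM in PTPF libraries, against 7.12, 6.41 and 5.93 CPM in STATF libraries, a log2 fold change of 0.68 (SE 0.108, adjusted p = 2.73e-05 in edgeR). C8A, the pore-forming alpha chain, had 10.2, 7.004 and 9.25 CPM in PTPF and 10.6, 10.1 and 9.65 CPM in STATF libraries. Its groups overlapped, and its log2 fold change of -0.20 had 95% limits of -0.43 and 0.03. C8G, the gamma chain of the lipocalin family, also overlapped at 8.34 to 10.4 CPM in PTPF and 8.55 to 9.89 CPM in STATF libraries. C8A and C8B are neighbours on chromosome 1 on opposite strands, within 111.3 kb from 56854806 to 56966140. Per length, the ratio of C8B to C8A was 0.884, 1.15 and 1.08 in PTPF libraries and 0.581, 0.5501 and 0.531 in STATF libraries, without overlap (exact permutation p = 0.1). C9, which polymerises to line the pore, was rare, with 41, 49 and 49 counts in PTPF and 33, 26 and 27 counts in STATF libraries. These correspond to 1.24, 1.34 and 1.501 CPM in PTPF and 0.880, 0.624 and 0.722 CPM in STATF libraries, a log2 fold change of 0.88 (SE 0.263, adjusted p = 0.0166 in edgeR). The call for C9 was lost with DESeq2 (adjusted p = 0.0531), without PTPF replicate 3 (0.0636 in edgeR) and without STATF replicate 2 (0.0763 in edgeR).

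In the classical pathway the proteases C1R, C1S and C2 were higher, while C1RL and the C4 genes did not pass. C1R, which activates C1S within the C1 complex, stood at 595, 552 and 589 CPM in PTPF libraries, against 424, 437 and 440.0 CPM in STATF libraries. The log2 fold change was 0.42 (SE 0.057, adjusted p = 2.86e-06 in edgeR) and the groups were well separated. C1S, which cleaves C4 and C2, had 1331, 1214 and 1324 CPM in PTPF and 1090 to 1150 CPM in STATF libraries. Its log2 fold change of 0.20 (SE 0.061, adjusted p = 0.0194 in edgeR) fell short of the threshold when PTPF replicate 3 (0.0894) or any STATF replicate was left out (0.0573 to 0.115). C2, the protease of the classical C3 convertase, stood at 31.3, 26.4 and 28.2 CPM in PTPF and 21.9, 21.7 and 23.5 CPM in STATF libraries, without overlap. Its log2 fold change was 0.36 (SE 0.073, adjusted p = 5.7e-04 in edgeR), and 33.3% of the exon sequence is shared with another same-strand gene. C1RL, a C1R-like protease, was narrowly separated at 88.2 to 89.9 CPM in PTPF and 82.2 to 86.5 CPM in STATF libraries but did not pass (adjusted p = 0.339 in edgeR). C1R, C1S and C1RL lie within 121.0 kb of chromosome 12, and 11.4% of the exon bases of C1R and 13.4% of those of C1RL are shared with other genes on the same strand.

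C4A and C4B, the isotypes of the component that C1S cleaves, had fold changes below 0 that did not pass. C4A had 149.7, 159 and 149.9 CPM in PTPF and 150.0, 177 and 198 CPM in STATF libraries (log2 fold change -0.19, adjusted p = 0.0761 in edgeR), and it was lower past the threshold without STATF replicate 1 (0.00296). C4A did not pass when any other library was left out. Without STATF replicate 3 its log2 fold change was -0.10 (adjusted p = 0.418 in edgeR). C4B had 140.5, 139 and 196 CPM in PTPF and 155, 204 and 232 CPM in STATF libraries (log2 fold change -0.31, adjusted p = 0.447 in edgeR). Both overlapped between groups, and the SD of C4B was 20.5% of its mean in PTPF and 19.7% in STATF libraries, against a median of 8.88% and 4.45% over 26 better expressed members. Their coding sequences in GENCODE 29, each 5232 bases long, differ at 13 positions (99.75% identity), and 92.2% of 75-base stretches in C4A transcripts also occur in C4B. The stretch below, coding bases 3346 to 3390 counted from the A of the start codon, holds 5 of the differences. It was picked for holding the most differences, and most of the remaining coding sequence does not separate a C4A read from a C4B read. Capitals mark the differing bases, C3359T, G3362C, T3370A, G3373C and C3375T, with the C4A base first.
C4A: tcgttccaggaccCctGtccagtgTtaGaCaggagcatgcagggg
C4B: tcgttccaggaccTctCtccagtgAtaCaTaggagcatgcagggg
The genes lie on the plus strand of chromosome 6, C4A from 31982024 to 32002681 and C4B from 32014795 to 32035418. Because reads may be assigned to either, both were also summed, giving 290.2, 298 and 346 CPM in PTPF libraries and 305, 381 and 429 CPM in STATF libraries. The sum overlapped between groups, with a log2 fold change of -0.26, 95% limits of -0.58 and 0.07 and an edgeR adjusted p of 0.256.

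**Figure D3:**
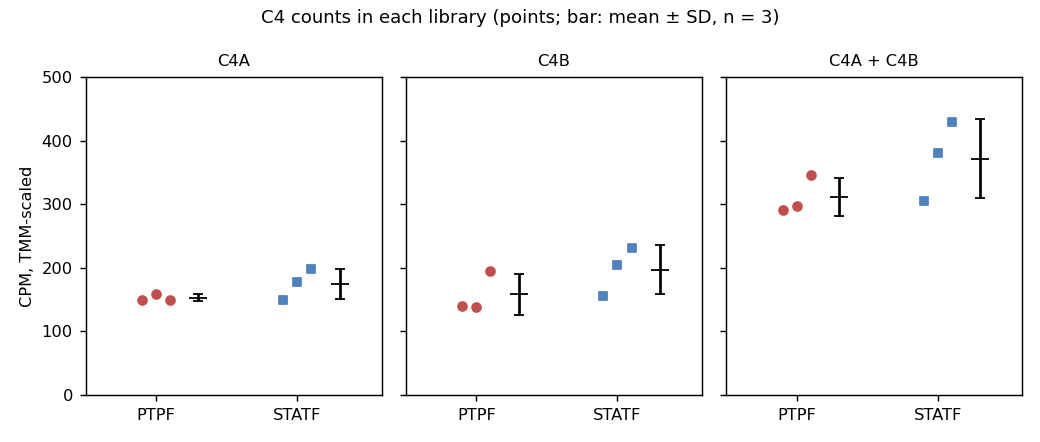
Level of C4A, C4B and their sum in each library in TMM-scaled CPM, with circles for PTPF and squares for STATF libraries and bars for the mean ± SD of 3 libraries. The groups overlap in all panels, the sum running from 290.2 to 346 CPM in PTPF and from 305 to 429 CPM in STATF libraries.

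No alternative pathway gene passed. C3 stood at 4745, 4957 and 5433 CPM in PTPF libraries, against 5014, 5137 and 5035 CPM in STATF libraries, the PTPF values spanning the STATF ones. Between groups the log2 fold change was 0.00, within limits at 95% of -0.14 and 0.13. CFB, the protease of the alternative convertase, had 76.1, 80.97 and 86.8 CPM in PTPF and 71.8, 77.2 and 79.2 CPM in STATF libraries, with overlapping groups and 95% limits of -0.03 and 0.22 on the log2 scale. For CFB, another gene annotated on the same strand covers 45.5% of exon bases. CFD, which cleaves factor B, and CFP (properdin), which stabilises the convertase, had 13 to 28 and 7 to 15 counts per library. Their 95% intervals, -0.50 to 1.05 for CFD and -0.44 to 1.37 for CFP on the log2 scale, include differences of more than 2-fold. Whether such differences could be detected at this depth was not tested.

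The lectin pathway was barely represented in transcript counts, and none of its genes passed. MASP1, a protease that circulates with the lectins, was the best expressed at 22.5, 23.9 and 20.8 CPM in PTPF and 22.2, 25.3 and 21.7 CPM in STATF libraries, with overlapping groups and 95% limits of -0.20 and 0.12 on the log2 scale. FCN2, which encodes ficolin-2, had 44, 59 and 43 counts in PTPF and 20, 56 and 25 counts in STATF libraries. Its STATF replicate 2 lay within the PTPF range and the adjusted p in edgeR was 0.0755, with a log2 fold change of 0.73. Without that library it was higher in PTPF, with a log2 fold change of 1.24 and an adjusted p of 0.00435 in edgeR. FCN2 did not pass when any other library was left out. Without STATF replicate 1 its log2 fold change was 0.49 (adjusted p = 0.318 in edgeR). MBL2, mannose-binding lectin, ranged over 1.03 to 1.32 CPM in PTPF and 0.906 to 1.12 CPM in STATF libraries, and the protease MASP2 over 1.28 to 1.59 CPM in PTPF and 0.828 to 1.55 CPM in STATF libraries, both overlapping. FCN3 had 0 to 4 counts in PTPF and 1 to 9 counts in STATF libraries, and COLEC11 0 to 1 counts in PTPF and 0 to 7 in STATF libraries. Neither passed the filter, and a count of 0 in 1 library allows up to 3 counts, or 0.0720 to 0.0919 CPM.

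Proportions between partner components were compared as 8 ratios per length, chosen after the values were seen. C1S exceeded C1R 2.002-fold to 2.05-fold in PTPF and 2.34-fold to 2.38-fold in STATF libraries. C4BPA over C4BPB was 1.45 to 1.66 in PTPF and 1.29 to 1.36 in STATF libraries, and C6 over C5 was 1.17 to 1.27 in PTPF and 1.59 to 1.68 in STATF libraries. Set against C3, C5 stood at 0.0631 to 0.0673 in PTPF and 0.0399 to 0.0441 in STATF libraries, and CFB at 0.0266 to 0.0272 in PTPF and 0.0239 to 0.0262 in STATF libraries. None of these ratios, nor C8B over C8A, overlapped between groups, each with an exact permutation p of 0.1, the smallest possible, and 0.133 adjusted over the 8 ratios. All of them except CFB over C3 include a gene called higher above, so their separation partly restates those calls. How often ratios of other gene pairs separate was not tested. The ratio of C4A to C4B overlapped at 0.764 to 1.14 in PTPF and 0.852 to 0.965 in STATF libraries (exact permutation p = 0.6), as did C8A over C8G at 0.411 to 0.489 in PTPF and 0.477 to 0.592 in STATF libraries (exact permutation p = 0.2).

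**Figure D4:**
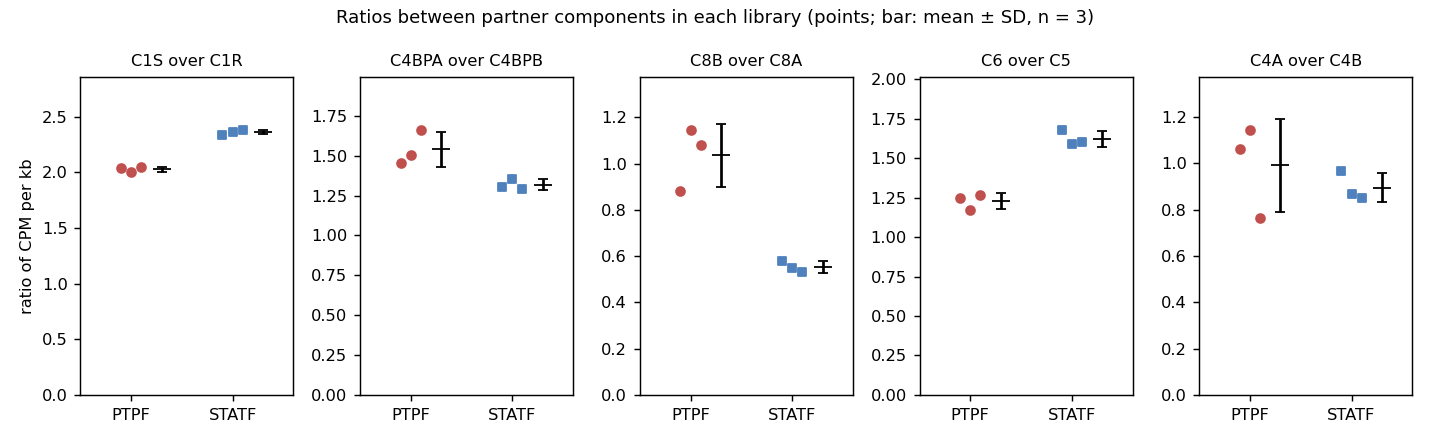
Ratio of CPM per kb between pairs of complement components in each library, with circles for PTPF, squares for STATF and bars for the mean ± SD of 3 libraries. PTPF libraries lie below STATF libraries for C1S over C1R and C6 over C5, above them for C4BPA over C4BPB and C8B over C8A, and overlap them for C4A over C4B.

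Position grouped some of the differences but not all. In the major histocompatibility complex on chromosome 6, C2, CFB, C4A and C4B lie within 137.6 kb, and 1 of these 4 genes was higher, with log2 fold changes from -0.31 to 0.36. On chromosome 5, C9 and C6 were higher and C7, which lies between them, was not called. C7 had only 27 to 43 counts per library. Its log2 fold change was 0.25, with edgeR confidence limits of -0.30 and 0.80, beside 0.21 for C6. The missing call for C7 thus does not show that it differs from its neighbours. Of 6 members known from human cells to respond to interferons (C1R, C1S, C2, C4A, C4B and CFB), 3 were higher, and the median of all 6 log2 fold changes was 0.15. Of 8 known from the acute-phase response (C3, C4BPA, C4BPB, C9, CFB, C5, MBL2 and CFI), 4 were higher, with a median of 0.33. These counts, like those by position, stand beside 14 of all 33 complement genes tested and 10.1% of all genes called higher. Whether either set differs from the other complement genes was not tested.

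Upstream sequence was compared in RefSeq promoters (GRCh38.p14), which were at hand for 24 of the 35 genes. In the 250 bases before the start, both strands were searched for 4 motifs. They were the STAT-type motif TTCNNNGAA, an interferon-response motif (GAAA, any 2 bases, GAAA), the C/EBP-type motif TTGCNNAA and an NF-kB-type motif (GGG, any 2 bases, TTTCC). TTCNNNGAA occurred in 7 of the 24 (C1RL, C7, CD59, CFB, MASP2, MBL2 and VTN) and in 6.57% of 35116 promoters. Of these genes CD59 was called higher and the other ones were not called. TTGCNNAA occurred in 6 of the 24 (C1R, C1RL, C6, FCN2, MBL2 and VTN) and in 9.05% of all promoters. The interferon-response motif occurred in CFB alone of the 24, against 3.02% of all promoters, and the NF-kB-type motif in none of them, against 1.73%. The other called genes with a promoter at hand (C2, C4BPA, C4BPB, C5, C8B, C9 and CD46) held none of the 4 motifs. The 4 sequences below were picked after the values were seen, for genes that hold a motif and were called (CD59, C1R and C6) or hold both a STAT-type and an interferon-type motif and were not called (CFB). Each runs 5′ to 3′ on the gene's strand and ends at the base before the start, and capitals mark the motifs, which do not overlap. The promoters are CD59 at chr11:33736480-33736729 (minus strand), C1R at chr12:7092446-7092695 (minus strand), C6 at chr5:41261470-41261719 (minus strand) and CFB at chr6:31945845-31946094 (plus strand).
CD59: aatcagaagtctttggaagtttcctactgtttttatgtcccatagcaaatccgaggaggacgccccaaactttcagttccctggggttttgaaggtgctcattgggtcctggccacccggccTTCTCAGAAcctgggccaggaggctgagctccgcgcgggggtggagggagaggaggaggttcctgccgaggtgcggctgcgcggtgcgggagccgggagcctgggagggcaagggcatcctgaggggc
C1R: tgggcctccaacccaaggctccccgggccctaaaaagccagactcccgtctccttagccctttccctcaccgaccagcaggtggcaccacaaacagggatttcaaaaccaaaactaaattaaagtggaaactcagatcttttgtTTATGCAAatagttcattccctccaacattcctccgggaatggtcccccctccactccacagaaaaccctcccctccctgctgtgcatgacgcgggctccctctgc
C6: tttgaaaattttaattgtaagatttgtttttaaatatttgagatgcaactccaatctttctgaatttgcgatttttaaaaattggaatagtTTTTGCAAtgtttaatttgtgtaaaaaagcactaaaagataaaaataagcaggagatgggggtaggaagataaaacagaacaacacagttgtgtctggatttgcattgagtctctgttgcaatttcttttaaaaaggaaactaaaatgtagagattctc
CFB: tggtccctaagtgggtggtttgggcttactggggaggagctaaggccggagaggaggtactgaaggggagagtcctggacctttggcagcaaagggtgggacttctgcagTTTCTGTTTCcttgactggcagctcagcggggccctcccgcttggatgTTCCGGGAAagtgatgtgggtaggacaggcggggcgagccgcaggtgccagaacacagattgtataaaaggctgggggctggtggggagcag
The STAT-type match in CD59 lay 128 to 120 bases before the start, and that in CFB 92 to 84 bases before it, with the interferon-type match of CFB at 140 to 131 bases. C1R held its C/EBP-type match at 106 to 99 bases and C6 at 159 to 152 bases. A match describes these letters only and shows neither binding nor a cause.

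Other complement genes, from a list of 26 that are not among the 35, were measured in the same libraries. Of the 15 that passed the filter, 3 were higher and 1 lower in PTPF libraries, beside 10.1% higher and 11.6% lower over all genes tested. SERPING1, which encodes the C1 inhibitor that removes C1R and C1S from the C1 complex, stood at 588, 523 and 552 CPM in PTPF libraries, against 413, 441 and 415 CPM in STATF libraries (log2 fold change 0.39, SE 0.059, adjusted p = 1.55e-05 in edgeR). Its groups did not overlap, and C1R, one of its targets, had a log2 fold change of 0.42. CPN2, a subunit of the carboxypeptidase that inactivates C3a and C5a, had 113, 113 and 119.9 CPM in PTPF and 95.1, 103 and 98.9 CPM in STATF libraries (log2 fold change 0.22, adjusted p = 0.00358 in edgeR). SUSD4, a membrane regulator, had 53 to 110 counts per library and a log2 fold change of 0.65 (adjusted p = 0.019 in edgeR). The call was lost when PTPF replicate 1 (0.0815) or 3 (0.076) or the first STATF replicate (0.126) was left out. KLKB1, the plasma prekallikrein of the contact system, which SERPING1 inhibits as well, was lower at 19.5, 17.2 and 21.1 CPM in PTPF and 24.4, 28.8 and 26.7 CPM in STATF libraries (log2 fold change -0.47, SE 0.08, adjusted p = 6.51e-05 in edgeR). C1q, the recognition unit of the classical pathway, is made largely by myeloid cells. Its chains C1QA and C1QC had no count in any library and C1QB 2 counts in 1 PTPF library, beside abundant C1R and C1S. Of the receptor transcripts, C5AR1 had 97 to 160 and C5AR2 32 to 54 counts per library. Neither was called (adjusted p = 0.0659 and 0.0959 in edgeR), with log2 fold changes of 0.43 and 0.55 and no overlap between groups. ITGAX, from the same list, did not overlap in the other direction (log2 fold change -0.77, adjusted p = 0.0735 in edgeR). ITGAM, ITGB2 and CR2 overlapped and were not called. CR1 with 0 to 1 and C3AR1 with 0 to 4 counts per library did not pass the filter.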

How the data were processed

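Polyadenylated RNA of 6 HepaRG samples was sequenced, 3 labelled PTPF and 3 labelled STATF by title. The authors deposited raw read counts per gene, not normalized, made with CASAVA 1.8, HISAT2 2.0.5 and featureCounts 1.5.0-p3 on GRCh38, per the submitters' processing notes. Whether counting used strand or multi-mapping reads is not given in the sources used here, so reads of overlapping or near-identical genes cannot be told apart. Levels per kb used the gene length that the authors deposited, in bases, another kind of unit. Of the table's genes, 58724 (99.98%) have the same position in GENCODE release 29, which gave exon overlaps, shared 75-base stretches and the C4 coding sequences.

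Counts passed filterByExpr and TMM scaling before the quasi-likelihood test of edgeR 4.0.16 in R 4.3.3 (robust glmQLFit), with Benjamini-Hochberg adjustment over all 17844 genes and a threshold of 0.05. Fold changes are PTPF over STATF, and SE and 95% intervals come from that fit. The exact permutation test used log2 CPM with a pseudocount of 0.1 for genes. All 35 members were named, with the genes called from a list of other complement genes and SERPING1. The rule for printing promoters took CFHR3 and CFHR2, which had no entry in the promoter table. The members and lists were chosen with earlier results of these data known. Counts were also simulated with 200 of 17593 genes changed between PTPF and STATF, a far smaller share than the 21.6% called in the data. On these counts the test recovered 80% of 50 genes changed 1.5-fold and 98% of 50 changed 2-fold, and 4.55% of calls were false. The rates were not split by level. Whether they hold for members with few counts, such as C7, C9, CFD, CFP, CFHR5 and most lectin genes, was not tested. Libraries within a group differed by more than sampling noise (4.01 to 10.9 chi-square units per degree), and each counted as 1 replicate. Alternatives were other scalings and filters, DESeq2 1.42.0, limma-voom 3.58.1, a replicate block, and leaving out each library. Floors and intervals on counts cover counting error only, because reads were not tagged by molecule. Some genes of the pathway are not reported here.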

Additional observations from a re-analysis of the deposited data

How the results depend on the processing

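Of the 14 complement genes called higher, 10 passed in every alternative that tested them, the exceptions being C1S, C6, C9 and CD59. With library totals as the only scaling, C1S (edgeR adjusted p = 0.0595) and C6 (0.0813) did not pass, and the libraries and tools behind the other lost calls are given with each gene above. That scaling moved the median of all genes to -0.06 and the number of genes called higher to 1164, against 1801. The count of complement genes called lower, 0 in edgeR, was 1 with library totals and 1 without a filter, C4A in both, and the same holds for the classical pathway. Leaving out 1 library gave 0 to 1 lower complement or classical genes, 0 to 1 higher lectin genes, 2 to 4 higher terminal genes, and 2 to 5 higher and 1 to 2 lower among other complement genes. Limma-voom called 1 lectin gene higher, FCN2. Without the C4 genes and the CFHR genes, which share sequence with other genes to very different degrees, 4 regulators were higher. For some genes not called, the sign of the log2 fold change depended on 1 library: leaving out each in turn gave -0.0834 to 0.033 for MASP1, -0.0609 to 0.0387 for C3, -0.0404 to 0.599 for CFD, -0.0327 to 0.0689 for CD55 and -0.112 to 0.0394 for VTN. With library totals CD55 was at -0.0448. The cause of these changes was not tested.

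With the replicate block, 2 classical and thus 2 complement genes were lower, C4A and C4B (adjusted p = 0.0212 and 2.25e-04), and 1 lectin gene, FCN2, was higher. Same-numbered libraries shared little of their deviations from group means (correlations 0.03, 0.06 and 0.00). Those of replicates 1 and 2 were the highest of all pairs across groups, while PTPF replicate 3 correlated better with STATF replicate 2 (0.02). The correlations do not settle whether the numbers pair the samples, and the labels do not say, so the main test used no pairing. Depth limits CFD, CFP, CFHR5, C7 and most lectin genes, which had under 60 counts per library.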
